A study of Mus musculus with 2 samples.

Results

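The proteasome subunit genes were taken as every gene of the deposited table whose mouse symbol begins with Psm, one of the letters a to g and a digit, pseudogene names left out, which gave 48 of 12432 genes. They were measured in 178 single CD4 T cells that recognise the 2W1S peptide, sorted out of the spleen and the peripheral lymph nodes of C57BL/6 mice that carried Candida albicans engineered to express that peptide. Cells were captured on a Fluidigm C1 instrument and amplified with SMART-Seq v4 chemistry, which covers the whole transcript without molecular identifiers. All cells share 1 genotype and 1 treatment: 82 came from a March capture (runs Mar1 with 25 cells and Mar17 with 57) and 96 from an April capture (runs Apr13 and Apr21, 48 cells each), and the captures were treated as 2 replicates of 1 group. A capture here is the sample of 1 month, and the labels do not say what its runs shared. No uncolonized mice were analysed here, the number of mice behind each capture and their age are not given in the labels, and no test was made between the months, which are batches here. Comparisons are therefore between classes of cells within the captures. With 2 captures as the replicates, p-values reflect only how far a class difference varied between the captures. That variation was pooled across genes by the fit and may be technical.

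The proteasome is the protease that degrades proteins tagged with ubiquitin. Its barrel-shaped core particle is built from rings of alpha subunits (Psma genes), which gate the entry, and rings of beta subunits (Psmb genes), of which Psmb5, Psmb6 and Psmb7 carry the proteolytic sites. In lymphocytes and in cells exposed to interferon gamma, Psmb8, Psmb9 and Psmb10 replace these sites and form the immunoproteasome, which is known for making peptides for MHC class I. The regulatory particle holds ATPases that unfold the substrate (Psmc genes) and non-ATPase subunits that bind and remove ubiquitin (Psmd genes), while the Psme genes encode alternative activators. T cells that leave quiescence grow and divide, and protein synthesis increases in them. Klf2, a transcription factor named in the title of the series, is known for maintaining quiescence and recirculation of T cells.

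The 48 genes comprised 7 core alpha genes, 7 core beta genes, the immunoproteasome genes Psmb8 and Psmb10, 6 regulatory ATPases, 11 regulatory non-ATPases, 3 regulatory-particle chaperones, 4 activators, 4 core-particle chaperones, the inhibitor Psmf1 and 3 others. These 3 were Psmb11, known as the beta subunit of the thymic epithelium, Psme2b, a near copy of Psme2, and Psmc3ip, which matches the naming rule but encodes a partner of the meiotic recombinases and no subunit. Psmb9 and Psma8 were not analysed here. In 13 of the 48 genes the transcripts had a near copy elsewhere in the annotation (at least 95% identity over at least 200 bases), and for Psma3, Psmd11, Psme2 and Psme2b such a copy was itself in the table, so how reads were divided among the copies is uncertain. Exons of 11 genes, Psmb8 among them, overlapped a gene on the other strand, and the sources used here do not say whether counting used the strand. Those of 4 genes, Psmb5 among them, overlapped a gene on the same strand.

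Promoter sequence from RefSeq (GRCm38.p6) was matched for 41 of the 48 genes, over 250 bases before and 50 after the RefSeq start, and 7 motifs were searched on both strands. The core of the ETS factor site, CCGGAAG, was present in 15 of 41 proteasome promoters (36.6%), against 21.4% of the 8577 promoters of genes in the table and 9.93% of all 27025 genes with a promoter. Psmd11 and Psmd13 also held it and are not shown. By the GENCODE starts, the stretches of Psmc1 and Psmd12 lie inside the gene. The stretches below are from the 7 regulatory-particle genes where the motif and its flanking bases lay before the RefSeq start. Capitals mark the motif or its reverse complement, and each stretch is written 5′ to 3′ on the strand of the gene.
Psmc1, chr12:100110164-100110190, + strand: ggtggatgcaCTTCCGGcggtggcgat
Psmc2, chr5:21785181-21785207, + strand: ccagtgagcaCTTCCGGgatggggctc
Psmc6, chr14:45329714-45329740, + strand: ggcgggccagCCGGAAGgggcggagcc
Psmd2, chr16:20651616-20651642, + strand: ccgcagggcgCTTCCGGtctggaggac
Psmd4, chr3:95042723-95042749, - strand: tacagctgttCCGGAAGctgctgcgaa
Psmd6, chr14:14120974-14121000, - strand: agagacgcgaCCGGAAGtcagactggc
Psmd12, chr11:107479501-107479527, + strand: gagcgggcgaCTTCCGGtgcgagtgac
The motif of nuclear respiratory factor 1 (GCGCA, any base, GCGC) was in 7 proteasome promoters (17.1%), against 11.9% of promoters of genes in the table. The stretches from 3 core alpha genes and the ATPase gene Psmc4 are shown for comparison, with the motif in capitals.
Psma2, chr13:14613105-14613134, + strand: ggcccctcttGCGCATGCGCaagggtcaaa
Psma3, chr12:70974535-70974564, + strand: tatggtttctGCGCACGCGCgctctctgct
Psma4, chr9:54950788-54950817, + strand: tcgcagtcctGCGCACGCGCgggagccata
Psmc4, chr7:28050242-28050271, - strand: aagagttactGCGCACGCGCaacatccttg
The GC box GGGCGG stood in 22 proteasome promoters (53.7% against 66.7% in the table), CCAAT in 14 (34.1% against 43.1%), the antioxidant response core TGACNNNGC in 6 (14.6% against 16.5%), the STAT palindrome TTCNNNGAA in 3 (7.32% against 8.42%) and the interferon-stimulated response core (GAAA, any 2 bases, GAAA) in 5 (12.2% against 3.92%). The 5 genes with the interferon-stimulated core were Psmb3, Psmd4, Psmd9, Psme1 and Psmg4. A match is a description of letters and not of a bound site.

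The deposited values were read as log2 of a length-scaled abundance plus 1, and the linear value is the abundance itself, scaled so that the values of a cell sum to between 892206 and 979888. Because the scale is per length, levels of different genes may be set side by side. Proteasome genes were abundant: their median mean linear value was 130.2, against 15.6 over all genes, and the median proteasome gene reached a linear value of 1 in 45.5% of cells, against 16.9% for the median gene of the table. As a share of all linear signal, the 48 genes summed to a median of 0.799% in March cells (range 0.0221% to 2.66%) and 0.868% in April cells (range 0.0629% to 2.51%). By run the median was 0.755% in Mar1, 0.961% in Mar17, 0.946% in Apr13 and 0.836% in Apr21. A median cell held 23 proteasome genes at a linear value of 1 or more, and the range over all cells was 13 to 41. Cells thus differed widely from each other within every run, and the ranges of the 4 runs overlapped.

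**Figure D1:**
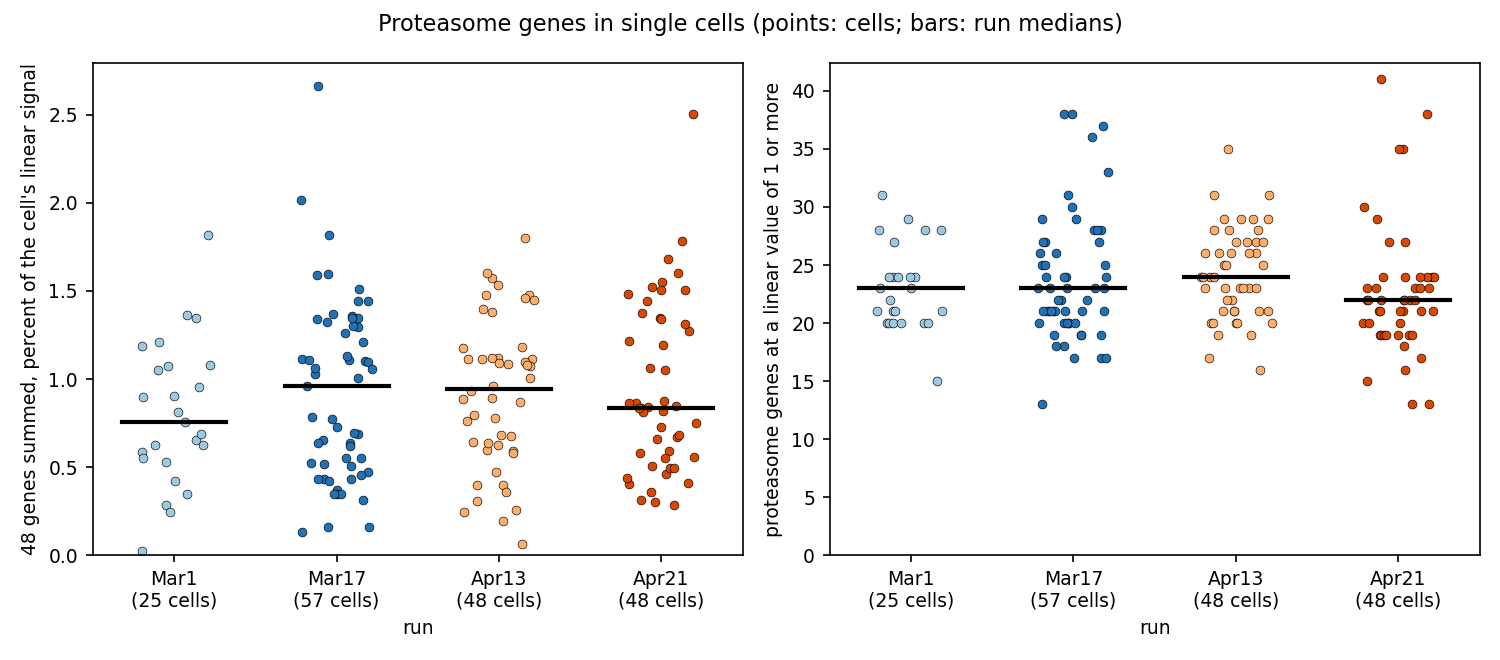
Each point is 1 cell; the y axes give the summed linear value of the 48 proteasome genes as a percent of the cell's signal (left) and the number of proteasome genes at a linear value of 1 or more (right), and the bars are the medians of the 4 runs on the x axes. The run medians lie between 0.755% and 0.961% on the left and between 22 and 24 genes on the right, inside a much wider spread of single cells.

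Sequencing depth is unknown, since no read counts were used. A median March cell had 5344 genes detected (from 2927 to 6990) and a median April cell 4933.5 (from 4005 to 6772). In 3 cells, all of the run Mar1, mitochondrial genes took over 50% of the signal (up to 93.9%, against at most 38.2% in any other cell). Cd3d, Cd3g and Trbc2 reached a linear value of 1 in 100% of cells and Cd4 in 70.8%. Of the listed markers of other cell types, Cd79a, Ms4a1, Lyz2, Ncr1 and Jchain were not among the genes analysed, the CD8 T cell genes Cd8a and Cd8b1 reached that level in 6.74% and 19.7% of cells, the myeloid genes Csf1r and Itgam in 2.81% and 40.4%, and the NK cell genes Klrb1c and Klrk1 in 4.49% and 7.30%. Of the B cell genes, Pax5 did so in 14.0% of cells and Ebf1 in 88.8%, at a median log2 value of 1.73.

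Within the core particle, alpha and beta genes had similar levels, with medians of the mean linear value of 261.5 over the 7 alpha genes and 258.9 over the 7 beta genes. Among alpha genes the mean linear value ran from 222.9 for Psma5 to 663.9 for Psma3, a 2.98-fold range. Psma3 was at or above 1 on that scale in 92.7% of cells in March (95% Clopper-Pearson interval 84.8% to 97.3%) and 92.7% in April (85.6% to 97.0%), and Psma7 in 95.1% (88.0% to 98.7%) and 87.5% (79.2% to 93.4%). These intervals cover counting error only. Psma5 was the least widespread alpha gene, at 34.1% in March (24% to 45.4%) and 46.9% in April (36.6% to 57.3%). Beta genes ran from 113.3 for Psmb7 to 477.1 for Psmb1, a 4.21-fold range. The subunits of 1 barrel are needed in equal numbers, but their transcripts were not found in equal shares of cells.

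The 3 sites of proteolysis also differed. Psmb6, of the caspase-like site, had a mean linear value of 380.5 and reached 1 in 69.7% of cells. Psmb5, of the chymotrypsin-like site, had a mean of 179.6 with a nearly equal share, 69.1%, and its median log2 value among cells at or above 1 was 3.02, against 7.63 for Psmb6. Psmb5 was therefore present in as many cells as Psmb6 but mostly at low values. Psmb7, of the trypsin-like site, had a mean of 113.3 and reached 1 in only 34.3% of cells.

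The immunoproteasome genes stood beside these partners. Psmb8, which replaces Psmb5, averaged 454.5 on the linear scale over March cells and 463.0 over April cells and reached 1 in 85.4% (75.8% to 92.2%) and 81.2% (72.0% to 88.5%) of cells. Psmb10, which replaces Psmb7, had means of 113.8 and 138.4 and reached 1 in 41.5% (30.7% to 52.9%) and 36.5% (26.9% to 46.9%). Of the summed linear signal of Psmb8 and Psmb5, Psmb8 took 66.9% in March and 76.7% in April, and by run 67.2% in Mar1, 66.8% in Mar17, 79.97% in Apr13 and 73.6% in Apr21. Of the sum of Psmb10 and Psmb7, Psmb10 took 38.9%, 49.0%, 51.3% and 61.8% in the same order of runs. Psmb8 was thus above its partner in total in all 4 runs, while Psmb10 and Psmb7 were close, with Psmb10 lower in Mar1 and Mar17 and higher in Apr13 and Apr21. Over both pairs the immunoproteasome share was 61.7% in March and 71.3% in April from the sums, but 85.9% and 82.3% as a median over cells, so the order of the months depended on the summary.

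In single cells Psmb8 and Psmb5 were mostly found together: 101 of 178 cells held both at a linear value of 1 or more, 47 Psmb8 alone, 22 Psmb5 alone and 8 neither. If the 2 genes had been spread independently, 102.3 cells would hold both. Psmb8 exceeded Psmb5 in 119 cells and Psmb5 exceeded Psmb8 in 57. Psmb10 and Psmb7 were both present in 26 cells, where independence gives 23.6, while 43 cells held Psmb10 alone, 35 Psmb7 alone and 74 neither. The number of cells with both genes was thus close to that under independence for either pair.

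Psmb11 was above 0 in 92.1% of cells, with 70.8% at or above 1, but at a mean linear value of 20.3, the lowest among beta-type genes, and a highest log2 value of 8.14, whereas the 7 core beta genes all reached 10.97 or more in some cell. Its exons lie on chromosome 14, next to Psmb5 (mm10 positions 54614119 to 54618022 for Psmb5 and 54621433 to 54629556 for Psmb11).

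Among regulatory ATPases, which form the ring that unfolds substrates, mean linear values differed only 2.04-fold, from 96.5 for Psmc6 to 197.0 for Psmc4. The share of cells at a linear value of 1 or more nevertheless ran from 35.4% for Psmc6 and 36.5% for Psmc5 to 88.2% for Psmc2 and 93.3% for Psmc4. Psmc5 was listed at 0 in 39.3% of cells but had a median log2 value of 7.25 in the cells at or above 1, whereas Psmc4 had 4.12.

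Non-ATPase genes spread most. Psmd11, a lid subunit, had the highest mean linear value, 215.9, and reached 1 in 82.6% of cells. Psmd4, a ubiquitin receptor, followed with 181.2, and Psmd14, the deubiquitinase of the lid, had 128.2. Psmd2 and Psmd1, large scaffold subunits, had means of 102.3 and 59.4. Psmd8 and Psmd13, also lid subunits, were found in few cells: Psmd8 was at or above 1 in 4.88% of cells in March (1.34% to 12.02%) and 5.21% in April (1.71% to 11.7%), with a mean of 0.25, and Psmd13 in 7.32% (2.73% to 15.2%) and 11.5% (5.86% to 19.6%). Psmd8, Psmd13, Psmg1 and Psmg3 were detected in fewer than 10% of cells and were the 4 genes left out of the tests between classes.

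The chaperones that assemble the complex were scarcer. Those of the regulatory particle, Psmd5, Psmd9 and Psmd10, had mean linear values of 85.3, 12.9 and 39.6. Those of the core particle, Psmg1, Psmg2, Psmg3 and Psmg4, had 5.99, 69.3, 3.10 and 33.0, and Psmg1 and Psmg3 were at or above 1 in 6.74% and 6.18% of cells. Psmg3 was listed at 0 in all 25 cells of Mar1.

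The interferon-inducible activator genes Psme1 and Psme2 were among the most abundant of all 48. Psme1 had mean linear values of 720.6 in March and 665.8 in April, the highest of any proteasome gene over all cells and in March, while Psma3 was higher in April at 711.3, and Psme2 had 562.9 and 589.2. They reached 1 in 92.1% and 89.9% of cells. The nuclear activator genes Psme3 and Psme4 were lower, with means of 56.2 and 67.0, and Psme3 was at or above 1 in 13.4% of cells in March (6.89% to 22.7%) and 29.2% in April (20.3% to 39.3%). Psmf1, named for its inhibition of the core particle in vitro, had a mean of 94.3 and reached 1 in 43.8% of cells.

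**Figure D2:**
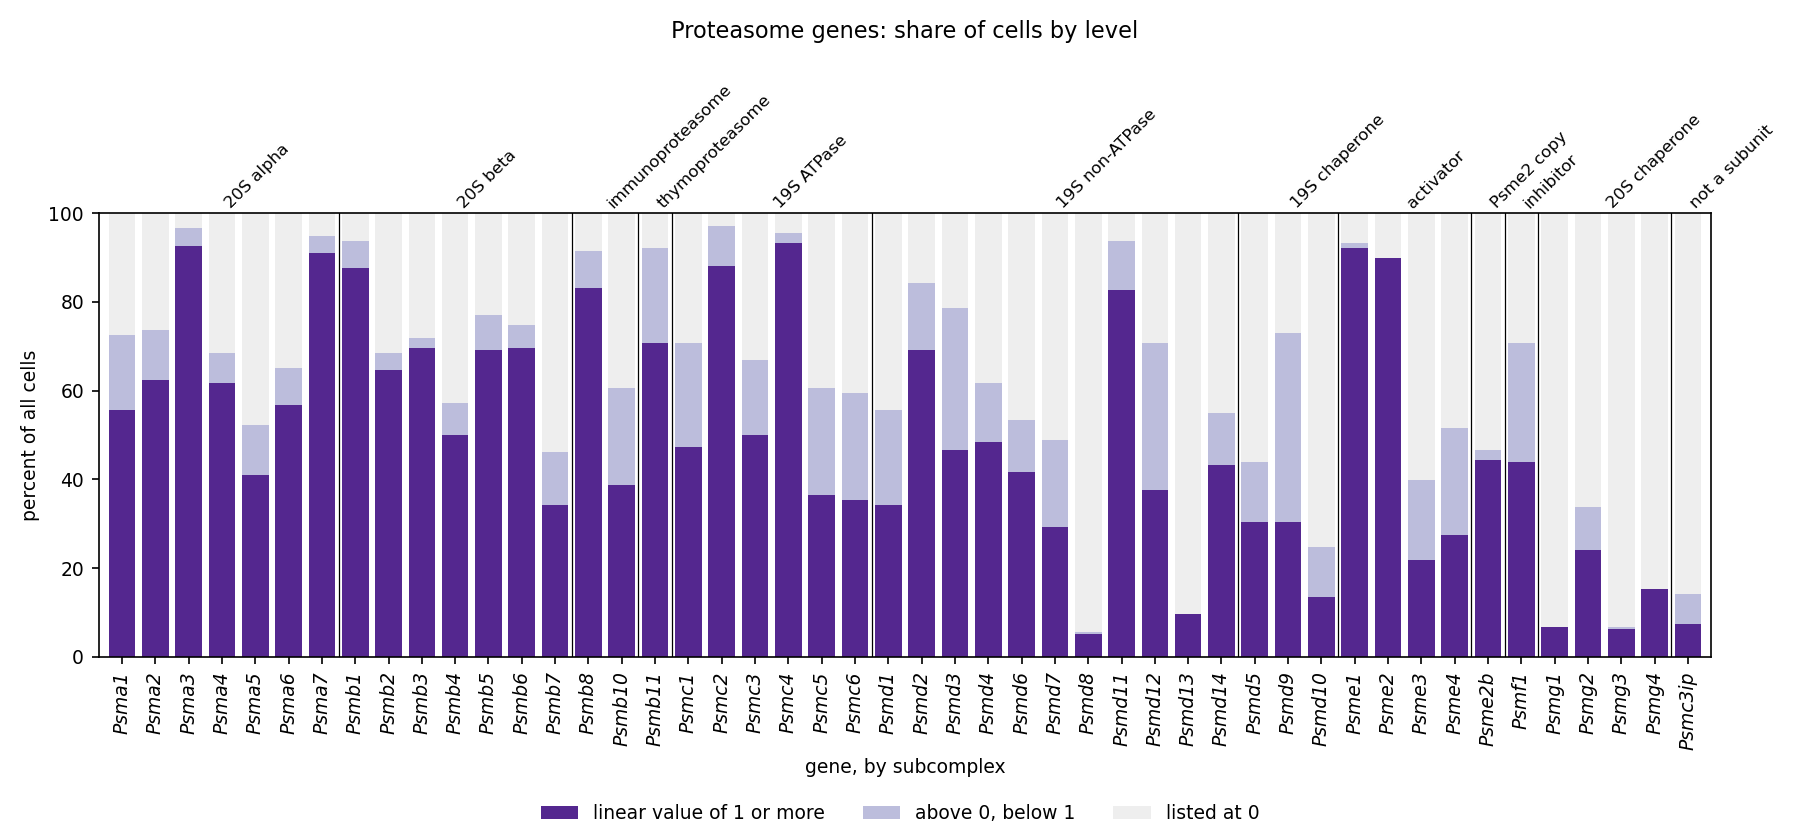
Stacked bars give, for each of the 48 genes (x axis, ordered by subcomplex), the percent of the 178 cells (y axis) with a linear value of 1 or more, above 0 but below 1, or listed at 0. Psmc4, Psma3, Psme1 and Psma7 stand above 90% at a linear value of 1 or more, and Psmd8, Psmd13, Psmg1, Psmg3 and Psmc3ip below 10%.

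Runs differed in the levels of single genes. Over the 41 proteasome genes detected in at least 25% of cells, the mean log2 values of the 4 runs spanned a median of 1.06. Over all 7664 genes that passed this detection limit the median was 0.73. Those genes were not matched to the proteasome genes in level. Psma3 had the widest span, 3.10, with run means of 4.35 in Mar1, 6.67 in Mar17, 7.45 in Apr13 and 5.27 in Apr21. Psmb1 had 4.90, 5.63, 5.66 and 7.14, and Psmc3 had 3.88, 1.66, 2.98 and 3.08 in the same order. Psma1 and Psmc4 had narrow spans, 0.23 and 0.29. Mar1 was the lowest run for 21 of the 41 genes (51.2%), and also for 44.4% of all genes that passed the detection limit.

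**Figure D3:**
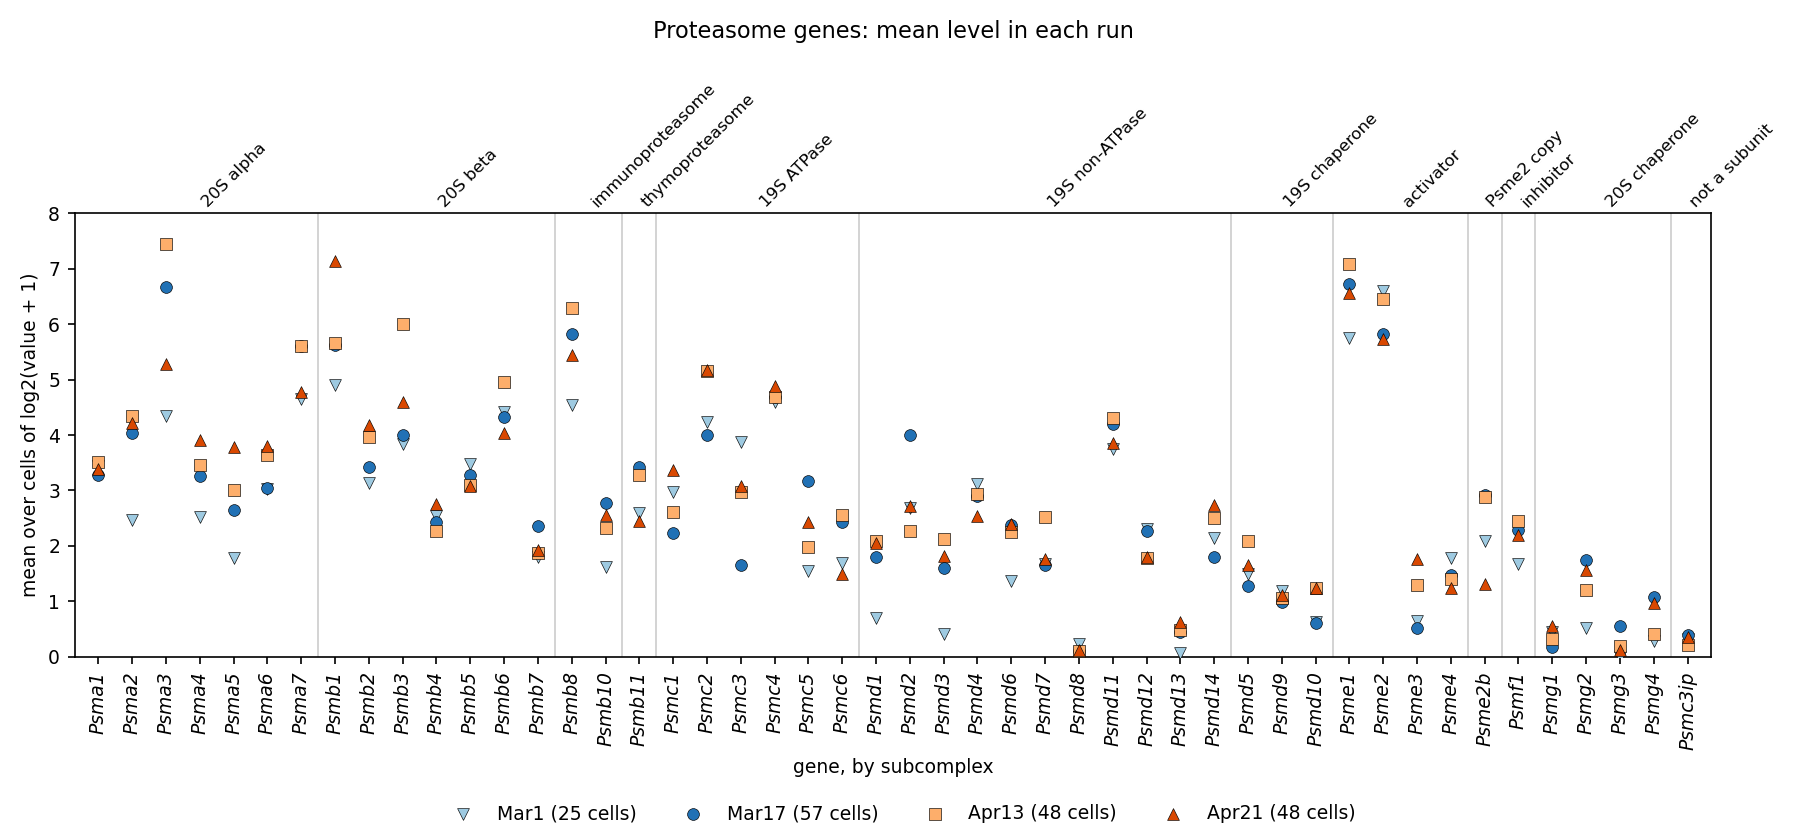
Each symbol is the mean log2(value + 1) over the cells of 1 run (y axis) for 1 of the 48 genes (x axis, ordered by subcomplex). Psme1, Psme2, Psma3, Psmb1 and Psmb8 lie highest, and Psma3 spreads from 4.35 in Mar1 to 7.45 in Apr13.

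Coordination was measured as Spearman's rho between genes over the cells of each capture, for the 40 proteasome genes detected in at least 25% of cells of both captures. Such values are descriptions, since each capture pools runs whose levels differed and genes share the depth of each cell. The median of the 780 pairs was 0.0604 in March and 0.0582 in April. Over all pairs of the 6912 genes that passed the same detection limit it was 0.0371 and 0.0203. Those genes were not matched to the proteasome genes in level. With ranks adjusted for the number of genes detected per cell, the proteasome medians were 0.0367 and 0.0334, against 0.0083 and 0.0062. By run the proteasome median was 0.0309 in Mar1, where all pairs had 0.0356, and 0.0618, 0.0473 and 0.0711 in Mar17, Apr13 and Apr21, where all pairs had 0.0336, 0.0164 and 0.0214. The ties between single pairs were weak throughout: the mean rho of the captures ran from -0.23 to 0.37 over the 780 pairs. Of these pairs, 55.6% were positive in Mar1, 68.6% in Mar17, 61.3% in Apr13 and 67.6% in Apr21. Over all pairs the same shares were 56.6%, 59.3%, 54.3% and 55.7%.

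The highest pair was Psme2 with its near copy Psme2b, at 0.480 in March and 0.250 in April, where shared reads cannot be told apart from shared levels. Next came Psmd4 with Psmd12 (0.343 and 0.242), Psmb7 with Psmd7 (0.258 and 0.309), Psma1 with Psma6 (0.343 and 0.213) and Psmc5 with Psmd2 (0.227 and 0.324). Psmb5 with Psmb8 had -0.0824 and -0.128, and Psmb7 with Psmb10 had -0.109 and 0.0825. Psmb8 with Psmb10 had 0.145 and 0.112, with 0.682 in Mar1 (25 cells), -0.101 in Mar17 (57 cells), 0.107 in Apr13 and 0.109 in Apr21. Psmb8 with Psme1, both interferon-inducible, had 0.174 and 0.197 and was positive in all 4 runs, while Psme1 with Psme2, neighbours on chromosome 14, had 0.0693 and 0.169. Among all 40 genes Psma2 and Psmb4 had the highest median rho with the others, 0.101 and 0.0994, and Psmf1 and Psmb11 the lowest, -0.0456 and -0.0140. Psmd9 came next, at 0.00089.

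Subcomplexes were also compared as means over their genes. These means had rho with the number of genes detected as well, at 0.367 for the core alpha genes, 0.257 for the core beta genes, 0.252 for the ATPases and 0.392 for the non-ATPases as means over the 4 runs, and the part of that in the ties between subcomplexes was not tested. The mean log2 value of the core alpha genes had rho with that of the core beta genes of 0.196, 0.339, 0.552 and 0.298 in Mar1, Mar17, Apr13 and Apr21, and with the non-ATPases of 0.359, 0.403, 0.410 and 0.329. With the ATPases it had -0.282 in Mar1 and 0.298, 0.334 and 0.557 in the other runs. The core beta genes and the activators Psme1 and Psme2 had 0.349, 0.319, 0.352 and 0.391. Psmb8 with Psmb10 tracked the core alpha genes less evenly, at 0.339, 0.250, 0.176 and -0.0899, and had -0.121, 0.118, 0.125 and -0.165 with the ATPases.

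The proteasome score of a cell, the mean log2 value over its proteasome genes, was set beside 6871 other genes detected in at least 25% of cells of both captures. The score itself had rho of 0.522, 0.308, 0.50 and 0.343 with the number of genes detected in the 4 runs and of -0.372, -0.0424, -0.443 and -0.338 with the mitochondrial percent of the signal, whose part in these values was not tested, and the median gene had a mean rho with it of 0.0581, so values are read against that level. The most similar genes were Cox5b, a subunit of cytochrome c oxidase, at a mean rho of 0.490 over 4 runs, Pfn1, which binds actin, at 0.448, Naca, of the nascent polypeptide-associated complex, at 0.401, Atp5j, of the ATP synthase, at 0.393, the predicted gene Gm13092 at 0.391 and Mrpl36, of the mitochondrial ribosome, at 0.387. All 6 were positive in all 4 runs, but they were chosen by their mean over these same runs.

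Of the gene lists, the chaperonin TRiC, which folds actin and tubulin, had the highest median rho, 0.228, with 8 of 8 genes above the all-gene median and 5 positive in all 4 runs (62.5%, against 19.9% of all genes). Cct2 had 0.340 and Cct8 0.284. Oxidative phosphorylation followed at 0.222, with 17 of 17 genes above the all-gene median and 13 positive in all runs; Cox5a had 0.348 and Cox6c 0.331. Proliferation genes had a median of 0.173, with 15 of 15 above the all-gene median, led by the helicase subunit Mcm6 at 0.319 and the histone H2afz at 0.304. Ubiquitin pathway genes and proteasome partners had 0.150, with 16 of 20 above the all-gene median. Among these Pomp, which matures the core particle, had 0.279, Sem1, a small lid subunit outside the Psm naming, 0.248, and Vcp, which extracts ubiquitinated proteins, 0.234, whereas Ecpas, a proteasome scaffold, had -0.119 and was positive in 0 of 4 runs.

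MHC class I presentation genes were nearer the level of all genes, with a median of 0.106 and 9 of 12 above it, as were cytosolic ribosome genes at 0.103 (12 of 20) and interferon response genes at 0.0655 (6 of 12). Among the 15 measured activation genes the median was 0.0697, and 9 lay above the all-gene median. Icos had 0.290 and Batf 0.265, both positive in all 4 runs, while Cd44 had 0.0617 and Cd69 0.0568, each positive in 2 of 4 runs. Quiescence and trafficking genes had a median of -0.0187 with 1 of 17 above the all-gene median, and 0 of 17 were positive in all runs; by run the median was 0.0906 in Mar1, 0.0736 in Mar17, -0.156 in Apr13 and -0.0977 in Apr21. That 1 gene was Foxo1, at 0.271. Over all genes the run medians were 0.110, 0.0462, 0.0333 and 0.0479 in the same order of runs. The activation score used in the comparison of classes had rho with the proteasome score of 0.523 in Mar1, 0.462 in Mar17, 0.107 in Apr13 and 0.136 in Apr21, and with the number of genes detected of 0.625, 0.407, 0.288 and 0.358. Klf2 itself had a mean rho of -0.0900, with 0.0208 in Mar1, -0.121 in Mar17, -0.0631 in Apr13 and -0.197 in Apr21.

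**Figure D4:**
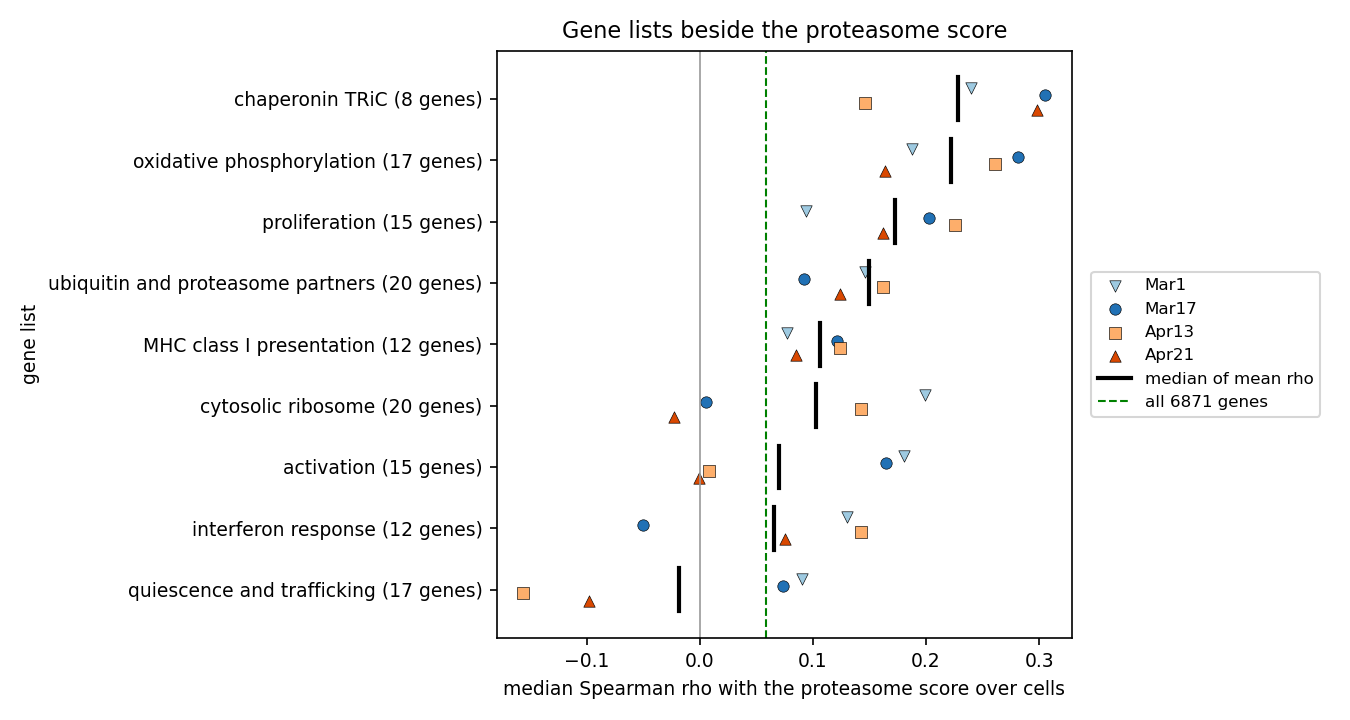
For each gene list (y axis) the symbols give the median Spearman rho with the proteasome score over the cells of each run (x axis), the black bar the median of the mean rho over 4 runs, and the dashed line the median of all 6871 genes, 0.0581. The chaperonin, oxidative phosphorylation, proliferation, ubiquitin and MHC class I lists lie above the dashed line in all 4 runs. The quiescence list lies below 0 in both April runs and above 0 in Mar1 (0.0906) and Mar17 (0.0736). The all-gene median of single runs, not drawn, was 0.110 in Mar1, 0.0462 in Mar17, 0.0333 in Apr13 and 0.0479 in Apr21. In Mar1 the proliferation (0.0938) and MHC class I (0.0767) lists lie below it.

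Cells positive for both Stmn1 and Hmgb2 at a linear value of 1 or more, proliferation genes, had proteasome scores with a median of 3.30 in March (10 cells, range 1.60 to 5.74) against 2.50 in the other 72 cells (range 0.996 to 5.04), and 3.35 in April (21 cells, range 1.39 to 5.80) against 2.75 in the other 75 cells (range 1.32 to 4.44). They were higher at the median in both captures, and the ranges overlapped. They also had more genes detected, 5953.5 against 5217 in March and 5137 against 4916 in April, and the part of that difference in the score was not tested.

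The first comparison between classes asked whether proteasome genes differed with Klf2. There were 43 Klf2-positive cells (value above 0) and 39 Klf2-negative cells in March, and 46 and 50 in April. Of the positive cells, 62.8% in March and 56.5% in April had Klf2 at a linear value of 1 or more, and the rest lay below it. Of the 44 proteasome genes detected in at least 10% of cells, 0 passed an adjusted p of 0.05 (limma with the capture as a block, 4 libraries, Benjamini-Hochberg over 10794 genes), beside 0% of all genes, and the smallest adjusted p of any proteasome gene was 0.619. At an unadjusted p under 0.05 there were 4 proteasome genes, Psmc5, Psmb6, Psma1 and Psmc1, and 698 genes in all (6.47%). The median difference of the 44 genes was -0.20 on the log2 scale, -0.003 in March and -0.33 in April, beside -0.027 over all genes, and 15 of 44 differences were above 0 (34.1%, against 45.4% of all genes). Differences of mean log2 values include zeros and are not folds.

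Psmc5, an ATPase, had mean log2 values of 2.02 in Klf2-positive and 3.41 in Klf2-negative cells in March and of 1.80 and 2.58 in April, a difference of -1.08 ± 0.41 (SE, n = 2 captures; limma adjusted p = 0.619). Psmb6 had 4.24 in Klf2-positive and 4.49 in Klf2-negative cells in March and 3.38 and 5.53 in April (-1.20 ± 0.51). Both were lower in Klf2-positive cells in both captures, but almost the whole difference of Psmb6 came from April. By group, 0 of 6 ATPase genes were above 0, with a median of -0.47, against 3 of 7 alpha genes, also with -0.47, and 2 of 7 beta genes, with -0.37. The activator Psme1 went the other way, with 6.89 in Klf2-positive and 5.92 in Klf2-negative cells in March and 7.17 and 6.50 in April (0.82 ± 0.47), as did its partner Psme2 (0.71 ± 0.48). Psmb8 had -0.65 ± 0.49, Psmb10 -0.15 ± 0.41, Psmb7 -0.37 ± 0.38 and Psmb5 0.040 ± 0.47, none past the threshold, and the sign of Psmb5 differed between captures (0.93 in March and -0.85 in April). Psmc3ip, which is no subunit, had 0.26 ± 0.17. With only cells at a linear value of 1 or more counted as Klf2-positive (53 against 125 cells), 0 proteasome genes passed the threshold and the median stayed at -0.20. Psmc5 then had -1.44, Psmb6 -0.64, Psme1 1.25 and Psmb8 -0.35.

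Of the 21 ubiquitin pathway genes and partners tested, 0 passed the threshold in either direction, and so it was in the other lists. Their medians were -0.38 for oxidative phosphorylation (3 of 17 above 0) and for TRiC (1 of 8), -0.26 for ubiquitin pathway genes (8 of 21), 0.27 for interferon response genes (16 of 18) and 0.21 for cytosolic ribosome genes (17 of 20). The 3 mostly mitochondrial cells were all Klf2-negative. Without them the proteasome median was -0.26, beside -0.044 over all genes.

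The second comparison asked about Cd44, which marks antigen-experienced T cells. Cd44-high cells (linear value of 1 or more) numbered 40 in March and 54 in April, Cd44-low cells 42 in each. Again 0 of 44 proteasome genes passed the threshold, beside 0% of 10794 genes, with a smallest adjusted p of 0.362 among proteasome genes and 0.0899 among all (limma). At an unadjusted p under 0.05 there were 9 proteasome genes, all higher in Cd44-high cells, and 827 genes in all (7.66%), 647 of them higher. The median difference of proteasome genes was 0.33 (0.29 in March and 0.32 in April), beside 0.094 over all genes. In both captures 23 of 44 were higher (52.3%, against 37.1% of all genes) and 5 were lower (11.4%, against 16.8%).

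Psmd5, a chaperone of the regulatory base, had mean log2 values of 2.16 in Cd44-high and 0.56 in Cd44-low cells in March and 2.31 and 1.29 in April (1.31 ± 0.36; limma adjusted p = 0.362). Psmc6 had 2.80 in Cd44-high and 1.63 in Cd44-low cells in March and 2.54 and 1.36 in April (1.17 ± 0.39). Both had higher means in Cd44-high cells in both captures. The ATPases as a group had a median of 1.04, with 5 of 6 above 0 and 4 of them at an unadjusted p under 0.05, whereas alpha genes had 0.16 (4 of 7) and beta genes 0.20 (5 of 7). Psmb8 had 6.26 in Cd44-high and 4.64 in Cd44-low cells in March and 6.09 and 5.56 in April (1.08 ± 0.54). Psmb10 had -0.44 ± 0.42, Psmb6 0.46 ± 0.52, Psmb5 0.20 ± 0.46 and Psmb7 0.0018 ± 0.42. On the negative side Psmd14 had -0.56 ± 0.45, with opposite signs in March (0.60) and April (-1.72), and Psmd3 -0.48 ± 0.37.

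Cytosolic ribosome genes differed in the other direction in this fit, with a median of -0.65 and 2 of 20 above 0, and proliferation genes had 0.35 with 18 of 19 above 0, with 0 genes past the threshold in either list. Of 21 ubiquitin pathway genes, 15 were above 0 with a median of 0.33 and 0 passed. The 3 mostly mitochondrial cells were all Cd44-high. Cd44-high cells had more genes detected, a median of 5389 against 5299.5 in Cd44-low cells in March and 5067 against 4783 in April. With cells matched on the number of genes detected, the median difference of proteasome genes was 0.078 (all genes 0.035), and without Mar1 it was 0.55 (all genes 0.13).

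The third comparison used an activation score, the mean log2 value of 20 activation genes such as Cd69, Icos, Il2ra, Nr4a1, Irf4 and Myc, and split the cells of each capture at its median. High-score and low-score cells numbered 41 each in March and 48 each in April. Here 1 of 44 proteasome genes passed the threshold, beside 0.408% of 10776 genes (44 genes, all higher in high-score cells; limma). That gene was Psma1, an alpha subunit. At an unadjusted p under 0.05 there were 8 proteasome genes, all higher, and 1099 genes in all (10.2%). The median difference of proteasome genes was 0.44, with 0.61 in March and 0.23 in April, beside 0.12 over all genes, an excess of 0.33. Here, as in the other comparisons, all genes were not matched to the proteasome genes in level. The median SE was 0.44 for proteasome genes and 0.30 over all genes. With averaged linear values the proteasome median was 0.12 and that of all genes 0.078, an excess of 0.040, and with quantile normalization the excess was 0.15. In all, 37 of 44 differences were above 0 (84.1%, against 67.5% of all genes), 27 were higher in both captures (61.4%, against 40.3%), and 1 was lower in both.

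Psma1 (chromosome 7, positions 114264606 to 114276118, mm10, minus strand; 0 near copies and no overlapping exon of another gene) had a mean log2 value of 4.78 in high-score and 1.88 in low-score cells in March and of 4.36 and 2.53 in April. The difference was 2.37 ± 0.48 (SE, n = 2 captures; 95% interval 1.43 to 3.31; limma adjusted p = 0.00291), and both high-score values lay above both low-score values. This adjusted p rests on variance shared across genes: limma put no weight on the gene's own spread in this fit (10776 total degrees of freedom, against 33.8 in the Klf2 fit and 38.2 in the Cd44 fit). Its difference ran from 1.61 to 2.90 over the other settings, which include other scales and single captures. The call was lost in 8 of 9 alternatives with a test. Among these were the fits without Mar1 (limma adjusted p = 0.582), without the 3 mostly mitochondrial cells (0.294) and with cells matched on genes detected (0.164). The 250 bases before its RefSeq start are shown because Psma1 was the only proteasome gene past the threshold; capitals mark matches to CCAAT and to the GC box GGGCGG, or their reverse complements, and no ETS core or nuclear respiratory factor 1 motif was found in its window.
Psma1, chr7:114276117-114276366, - strand: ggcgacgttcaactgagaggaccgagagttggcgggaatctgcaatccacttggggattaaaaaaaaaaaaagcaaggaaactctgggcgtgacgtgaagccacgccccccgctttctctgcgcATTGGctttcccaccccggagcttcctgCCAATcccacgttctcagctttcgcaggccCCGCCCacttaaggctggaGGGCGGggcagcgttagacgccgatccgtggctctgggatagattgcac

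Psmd14, the deubiquitinase of the lid, came next, with 3.003 in high-score and 0.81 in low-score cells in March and 2.995 and 2.24 in April (1.48 ± 0.41; limma adjusted p = 0.0637). It was among the genes with a negative difference in the Cd44 comparison. Psmd11 had 4.94 in high-score and 3.18 in low-score cells in March and 4.74 and 3.42 in April (1.55 ± 0.51; limma adjusted p = 0.154), and Psmb1 had 1.34 ± 0.56. By group, 9 of 9 tested non-ATPases were above 0 with a median of 0.59, 6 of 7 alpha genes with 0.54, 6 of 7 beta genes with 0.70, 5 of 6 ATPases with 0.43 and 4 of 4 activators with 0.36. Psmb8 had 6.21 in high-score and 4.65 in low-score cells in March but 5.93 and 5.79 in April (0.84 ± 0.56), and Psmb10 had 0.42 ± 0.42. Psmb6 had 1.05 ± 0.53, Psmb5 0.44 ± 0.47 and Psmb7 -0.15 ± 0.40. The differences of Psmb8, Psmb6 and Psmb5 were mostly those of March. The largest negative values were those of Psma3 (-0.52 ± 0.56) and the chaperone gene Psmg2 (-0.40 ± 0.35), and Psma3 had opposite signs in the captures.

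Other lists in the fit ran from 0.71 for oxidative phosphorylation (16 of 17 above 0) and 0.55 for proliferation (17 of 19) to -0.62 for quiescence and trafficking (5 of 17). Of 21 ubiquitin pathway genes, 15 were above 0 (median 0.19). On these lists 0 genes passed the threshold. The 44 genes past it did include Ndufv2, Atp5g1, Uqcrb, Ndufb6 and Atp5l, which belong to the respiratory chain or the ATP synthase but were not on the list. High-score cells had a median of 5491 genes detected against 5155 in low-score cells in March and 5084.5 against 4878 in April, and the 3 mostly mitochondrial cells all had low scores. With cells matched on genes detected, the proteasome median was 0.19 beside -0.0018 over all genes. The summed level of the B cell markers analysed was similar, 2.82 and 2.73 in high-score and low-score cells in March and 2.53 and 2.25 in April, and the medians of the CD8 T cell and NK cell markers were 0 in all classes. The 3 comparisons divide the same 178 cells, so their values are not independent of each other.

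**Figure D5:**
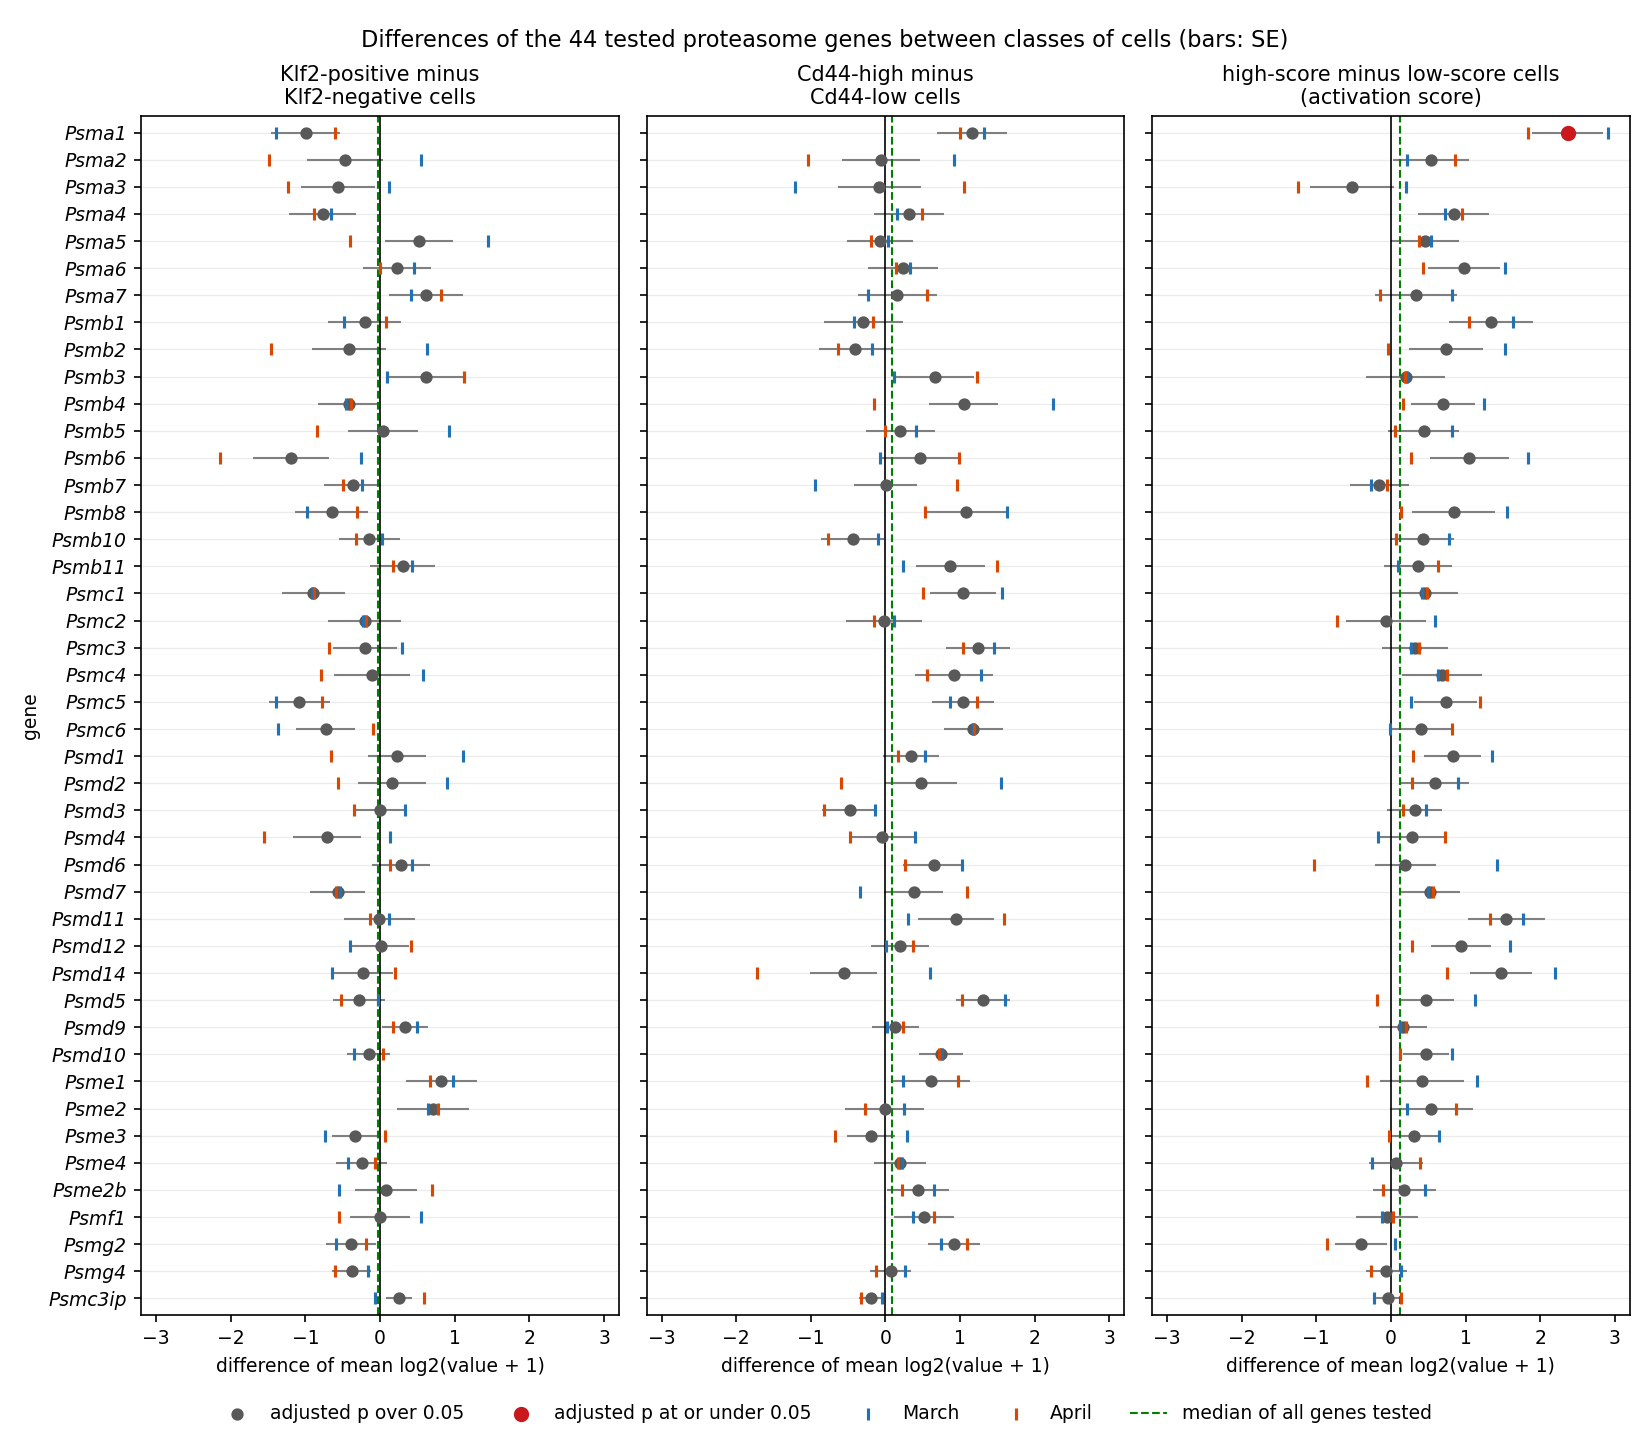
Points are differences of mean log2(value + 1) of the 44 tested proteasome genes (y axis) between classes of cells, bars are SE (n = 2 captures), blue and orange ticks are the March and April differences, and the dashed line is the median of all genes tested. Psma1 in the right panel (2.37) is the only proteasome gene past an adjusted p of 0.05 (limma); most points lie left of the dashed line in the Klf2 panel and right of it in the other panels.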

How the data were processed

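The authors deposited 1 table of log2 values per cell, with 2 to the power of the value minus 1 summing to 892206 to 979888 in each cell, so each was read as log2 of an abundance like TPM, with 1 added. The lowest values fell with exon length, which fits a scale per length. Per the submitters' processing notes the build is mm10. Aligner and counter were not given in the sources used here. Symbols matched 12163 identifiers and not 269; annotation came from GENCODE vM21 and promoters from RefSeq GRCm38.p6. All columns mapped to a capture. Cells under 500 genes detected would have been left out, which removed 0 cells. Doublets were not called, and 0 pairs of cells had identical values.

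Mean log2 values per capture and class were compared with limma 3.58.1 (R 4.3.3; trend, capture as block, 1 residual degree of freedom, two-sided, Benjamini-Hochberg at 0.05) over genes above 0 in 10% of cells or more, leaving out the genes that define the classes. The block comes from the labels, since both classes of a capture share its month. The fit was tested on simulated data, in which it called few of the genes given the smallest simulated shift. A gene that misses the threshold is therefore not shown to be unchanged. The fit also called some genes given no shift, most often in the activation-score comparison, so a call there can be false. Rank correlations used SciPy 1.17.1. The genes named are those past the threshold or, failing that, the 2 per direction with the smallest p, plus Psmb5, Psmb6, Psmb7, Psmb8 and Psmb10; others named were chosen after their values were seen. The members and lists were chosen with earlier results of these data known. Alternatives changed the averaging, pseudocount, filter, normalization, block, cells used and class limits.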

Additional observations from a re-analysis of the deposited data

How the results depend on the processing

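Leaving out 1 capture gives no residual degrees of freedom, so those settings are values with no test. The count of proteasome genes past the threshold was 0 in all 10 tested alternatives for Klf2 and for Cd44, which does not show that the classes did not differ. For the activation score it was 1 and became 0 with averaged linear values, with a pseudocount of 10, with quantile normalization, with no replicate block, with 4 runs as blocks, without mostly mitochondrial cells, with matched cells and, an alternative chosen after seeing the data, without Mar1; it stayed 1 with no filter on detection. The cause was not tested. Read depth is unknown, so a value of 0 sets no limit on a gene's level. The Psma1 difference had adjusted p values of 0.00408 to 0.901 over these alternatives (limma). Without the block the medians must be the same (-0.20 for Klf2, 0.33 for Cd44, 0.44 for the score). Each capture gives 1 library per class, so that setting can change only the test.

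The Cd44 median of 0.33 was 0.28 with averaged linear values, 0.20 with a pseudocount of 10, 0.21 with no filter, 0.19 with quantile normalization, 0.20 with 4 runs as blocks, 0.38 without mostly mitochondrial cells, 0.078 with matched cells, 0.55 without Mar1, 0.26 with Cd44-high set above the capture median, and 0.29 to 0.32 with 1 capture left out. The score median was 0.12 with averaged linear values, 0.14 with quantile normalization and 0.23 to 0.61 with 1 capture left out; the Klf2 median was -0.33 to -0.003. The median rho of pairs was 0.0593 and moved to 0.0573 without mostly mitochondrial cells, 0.0350 with adjusted ranks and 0.0528 within 4 runs. The immunoproteasome share was 66.7% from sums and 84.4% as a median over cells.

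Signs turned for genes that had not passed the threshold. In the Klf2 comparison Psmb5 had -0.13 with quantile normalization, -0.15 without Mar1 and -0.14 with Klf2-positive cells at a linear value of 1, and Psmb7 had 0.11 with averaged linear values and 0.13 with that class limit; with 1 capture left out Psmb5 ran from -0.85 to 0.93, Psmc3ip from -0.073 to 0.58 and Psmb10 from -0.32 to 0.027. In the Cd44 comparison Psmb7 had -0.85 with averaged linear values, -0.038 with a pseudocount of 10, -0.13 with quantile normalization, -0.18 with matched cells, -0.027 without Mar1 and -0.20 at the capture median; Psmb8 had -0.10 with averaged linear values, Psmb5 -0.28 with 4 runs as blocks and Psmb6 -0.42 with matched cells. With 1 capture left out Psmb5 ran from -0.0049 to 0.40, Psmd14 from -1.72 to 0.60, Psmb6 from -0.079 to 0.99 and Psmb7 from -0.95 to 0.95. In the score comparison Psmg2 had 0.085 and Psmb10 -0.029 with averaged linear values, Psmb10 had -0.14 with matched cells, and with 1 capture left out Psmg2 ran from -0.85 to 0.051 and Psma3 from -1.25 to 0.20.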
